A study of Hevea brasiliensis with 2 samples.

Results

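The unigenes described here are transporters of the latex transcriptome of the rubber tree, Hevea brasiliensis, that the study had called different between clone PR107 and clone CATAS8-79. A unigene is a transcript sequence assembled from the reads without a genome, and it carries no chromosome position. The members were the unigenes in the deposited table of called unigenes whose best database hit was named a transporter or a permease. Those whose hit text held sugar, sucrose, hexose, auxin, channel, antiporter, ATPase, malate or retrotransposon were left out. The words were matched as written, so Unigene21950, named for C4-dicarboxylate and malic acid transport, stayed in. Of 137 unigenes named a transporter or a permease, 12 fell under the words for leaving out, and 125 remained of 6726 listed and 51192 in all. The listed unigenes made up 13.1% of the 51192. The members were thus chosen by their reads in these same libraries, through the authors' thresholds on fold and false discovery rate, so the values below are a description, and no test of the difference was made.

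The samples were latex of untreated trees that had not been tapped before, from clone PR107 and from clone CATAS8-79, which the labels call RY8-79. The labels give an age of 3 years for both, and the methods of the study give an older age. Latex of 5 trees per clone was pooled and sequenced as 1 library, so there was no replicate within a clone, and every comparison is between these 2 libraries rather than between the clones. The libraries were of nearly equal depth, since 1 read was worth 0.146 reads per 1000000 reads (RPM) in PR107 and 0.145 RPM in CATAS8-79, and the median unigene had 40 reads in PR107 and 38 in CATAS8-79. The best-hit text was given for listed unigenes alone, and among these no unigene was named rubber elongation factor, hevein or rubber transferase. This was a search by word. The study itself reports a unigene for a Hevea rubber transferase as differentially expressed, so a missing word does not mean a missing gene. A unigene named small rubber particle protein had 274 reads in PR107 and 51 in CATAS8-79. Leaf words were also found and lay on both sides. Of 15 listed photosystem unigenes, 7 were higher in PR107 and 8 in CATAS8-79, with 7723 summed reads in PR107 and 15118 in CATAS8-79. A chlorophyll a-b binding unigene had 38 reads in PR107 and 147 in CATAS8-79, and a Rubisco small chain unigene had 256 reads in PR107 and 71 in CATAS8-79. The part of such differences in the values below was not tested.

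Latex is the cytoplasm of laticifers, the rubber-making cells of the bark, which refill after tapping with solutes taken from neighbouring cells. ATP-binding cassette (ABC) proteins use ATP to move lipids, conjugates and other compounds across membranes, while most of the other families couple movement to a proton or ion gradient. Laticifers also hold lutoids, vacuole-like bodies into which ions and amino acids can be moved.

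Of the 125 members, 52 (41.6%) were higher in PR107 and 73 (58.4%) were higher in CATAS8-79. Over all 51192 unigenes, 19.6% were 2-fold or more higher in PR107 and 15.9% were 2-fold or more higher in CATAS8-79. Every member had to pass the fold threshold to be listed, so nothing is read from its count against these shares. The median log2 ratio of RPM, PR107 over CATAS8-79, was -1.11 over the members. The other 6601 listed unigenes leaned the other way, with 3657 (55.4%) higher in PR107, 2944 (44.6%) higher in CATAS8-79 and a median log2 ratio of 1.11. The study's text gives the reverse for its called unigenes, with fewer higher in PR107 than in CATAS8-79. The reason was not tested. Reads of the members summed to 17329 in PR107 (0.252% of all reads) and 25212 in CATAS8-79 (0.364%), a log2 ratio of -0.53 with a 95% interval of -0.56 to -0.50. Intervals here are exact Clopper-Pearson intervals. They cover counting error only, because 1 library per clone gives no spread between trees or preparations. They also treat reads as independent, and since PCR copies are not independent molecules, they may be too narrow even for counting error. In pooled latex, fewer cells of a type and less RNA per cell cannot be told apart.

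The side of a member went with its number in the assembly. Among the highest-numbered unigenes, 23 of 28 members (82.1%) were higher in PR107, and 90.3% of the other listed unigenes of that range were. Among the lower-numbered ones, 29 of 97 members (29.9%) were higher in PR107, against 43.9% of the other listed unigenes. The part of the assembly in the sides was not tested. Every member had reads in at least 1 clone. In PR107, 12 members were at 0 reads, and these had 13 to 179 reads in CATAS8-79. They were all numbered from 30533 to 40427, below the highest-numbered range. That range starts just above 40427, and none of its 28 members and 1634 other listed unigenes had 0 reads in PR107. Whether its start was set independently of the reads in PR107 is not known. The place of these zeros and the shares higher in PR107 may thus follow in part from the choice of the start. In CATAS8-79, 1 member was at 0 reads, and it was among the highest-numbered. The part of the assembly in these zeros and in the widest gaps was not tested.

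The absolute log2 ratio ran from 1.001 to 6.20. It lay under 1.5 for 52 members and at 3 or more for 23. The members nearest the 2-fold threshold on each side were Unigene36485, an unnamed transporter with 375 reads in PR107 and 756 in CATAS8-79 (log2 ratio -1.001), and Unigene46357, a copper transporter with 78 reads in PR107 and 38 in CATAS8-79 (1.05). The members with the fewest reads, Unigene33726 and Unigene33495, had 0 in PR107 and 13 in CATAS8-79. Unigenes just outside the threshold carry no best hit in the tables used and were not analysed here. Per length, the median member lay at 10.8 RPKM (reads per kilobase of unigene per 1000000 reads) in PR107 and 12.4 RPKM in CATAS8-79. The other listed unigenes had medians of 17.7 RPKM in PR107 and 15.1 RPKM in CATAS8-79. Members were longer, with a median of 624 bp against 429 bp.

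**Figure D1:**
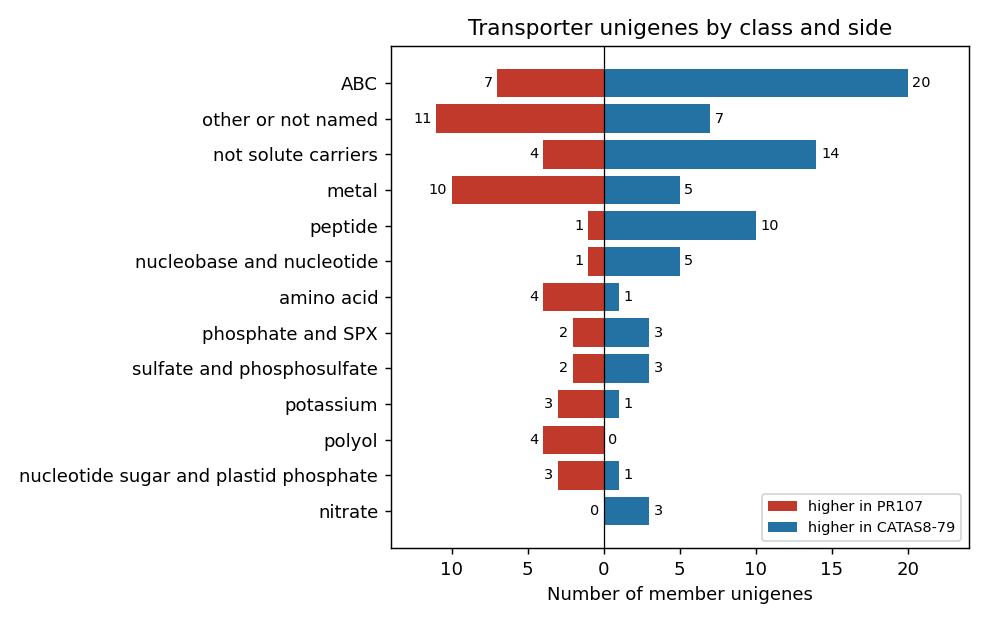
Number of member unigenes (horizontal axis) in each of 13 classes, with those higher in PR107 to the left and those higher in CATAS8-79 to the right of the line at 0. ABC members divided 7 to 20 and peptide carriers 1 to 10, while metal carriers divided 10 to 5 and all 4 polyol carriers were higher in PR107.

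The members fell into 13 classes by the words of their best hits. The largest was that of the ABC proteins with 27 members. Outside the ABC proteins, 18 members had a hit with the word transporter but a role other than carrying a solute across a membrane, and they are kept apart at the end. Without these, 48 members were higher in PR107 and 59 were higher in CATAS8-79. Some unigenes of the remaining classes, such as those with hits to vacuolar transporter chaperones, may not be carriers either.

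**Figure D2:**
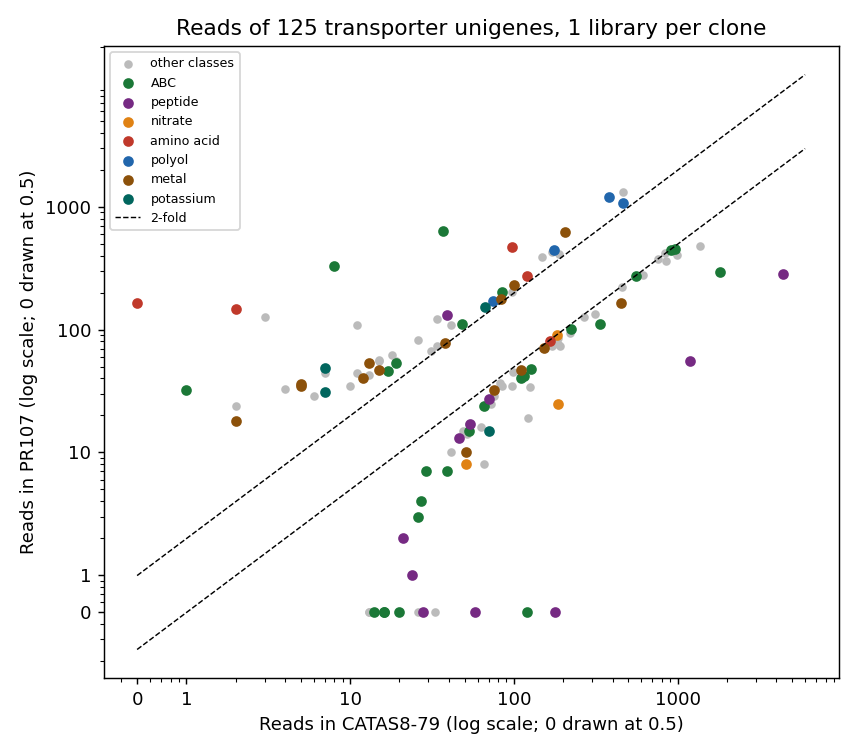
Reads of each of the 125 members in PR107 (vertical axis) and CATAS8-79 (horizontal axis), both on log scales with 0 drawn at 0.5, coloured by class, with dashed lines at a 2-fold ratio of RPM. The member with the most reads, a peptide carrier, lies far to the right with 283 reads in PR107 and 4373 in CATAS8-79, and 12 members lie on the bottom edge at 0 reads in PR107.

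Carriers of peptides and nitrate were higher in CATAS8-79 in 13 of 14 members. The proton-dependent oligopeptide (POT or PTR) carriers, which take up di- and tripeptides together with protons, numbered 6, and all of them were higher in CATAS8-79. Their reads summed to 355 in PR107 and 5884 in CATAS8-79, a log2 ratio of -4.04 (-4.20 to -3.89), or 16.4-fold lower in PR107. Unigene17866, with a best Swissprot hit to PTR5, had 283 reads in PR107 and 4373 in CATAS8-79, which is 33.2 RPKM and 509 RPKM. Its log2 ratio was -3.94 (-4.12 to -3.77), and it held 70.4% of the reads of the 11 peptide carriers. Another PTR5 hit, Unigene39802, had 0 reads in PR107 and 58 in CATAS8-79, at least 19.2-fold lower in PR107 against a floor of 3 reads per library. The PTR2 hit Unigene24782 had 55 reads in PR107 and 1192 in CATAS8-79 (-4.43, -4.84 to -4.04). All of these were read more in CATAS8-79, although Unigene17866 was also above the median member in PR107. The PTR3-B hit Unigene40427 had the widest gap on this side of all members, with 0 reads in PR107 and 179 in CATAS8-79, at least 59.2-fold lower in PR107. In Arabidopsis, PTR2 and PTR5 are dipeptide carriers and PTR3 is induced by wounding. The remaining PTR members, Unigene39837 and Unigene12090, were on the same side. Unigene39837 had 0 reads in PR107 and 28 in CATAS8-79, and Unigene12090 had 17 reads in PR107 and 54 in CATAS8-79.

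The oligopeptide transporter (OPT) family, which carries longer peptides and metal chelates, had 1 member higher in PR107 and 4 higher in CATAS8-79. Its 5 members summed to 174 reads in PR107 and 200 in CATAS8-79, a log2 ratio of -0.19 whose interval of -0.49 to 0.11 held 0. Unigene42165, which is 2253 bp long, held 131 of the 174 reads in PR107. Per length the sums were 17.3 RPKM in PR107 and 46.1 RPKM in CATAS8-79, a log2 ratio of -1.41. A hit to OPT7 was shared by 4 of them. Of these, Unigene42165 had 131 reads in PR107 and 39 in CATAS8-79 (1.76), while Unigene19435 had 27 reads in PR107 and 70 in CATAS8-79 (-1.36). Unigene19264 had 13 reads in PR107 and 46 in CATAS8-79 (-1.81). Unigene38506 had 1 read in PR107 and 24 in CATAS8-79, 23.8-fold lower in PR107 with a log2 interval of -9.94 to -1.96. The OPT7 hits thus lay on both sides, and whether they are copies of a gene or pieces of 1 transcript is not known. The OPT4 hit Unigene39641 had 2 reads in PR107 and 21 in CATAS8-79.

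All 3 nitrate carriers were higher in CATAS8-79, with 124 summed reads in PR107 and 421 in CATAS8-79 (-1.75, -2.05 to -1.46). Without the most-read of them, Unigene4788, the log2 ratio was -2.83. Unigene26956 and Unigene40073 shared a hit to the nitrate/chlorate transporter, which in Arabidopsis (CHL1) both takes up and senses nitrate. Unigene26956 had 25 reads in PR107 and 186 in CATAS8-79 (-2.88), and Unigene40073 had 8 reads in PR107 and 51 in CATAS8-79 (-2.66). The high-affinity carrier NRT2.5 was the third hit. Its unigene, Unigene4788, had 91 reads in PR107 and 184 in CATAS8-79 (-1.005).

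**Figure D3:**
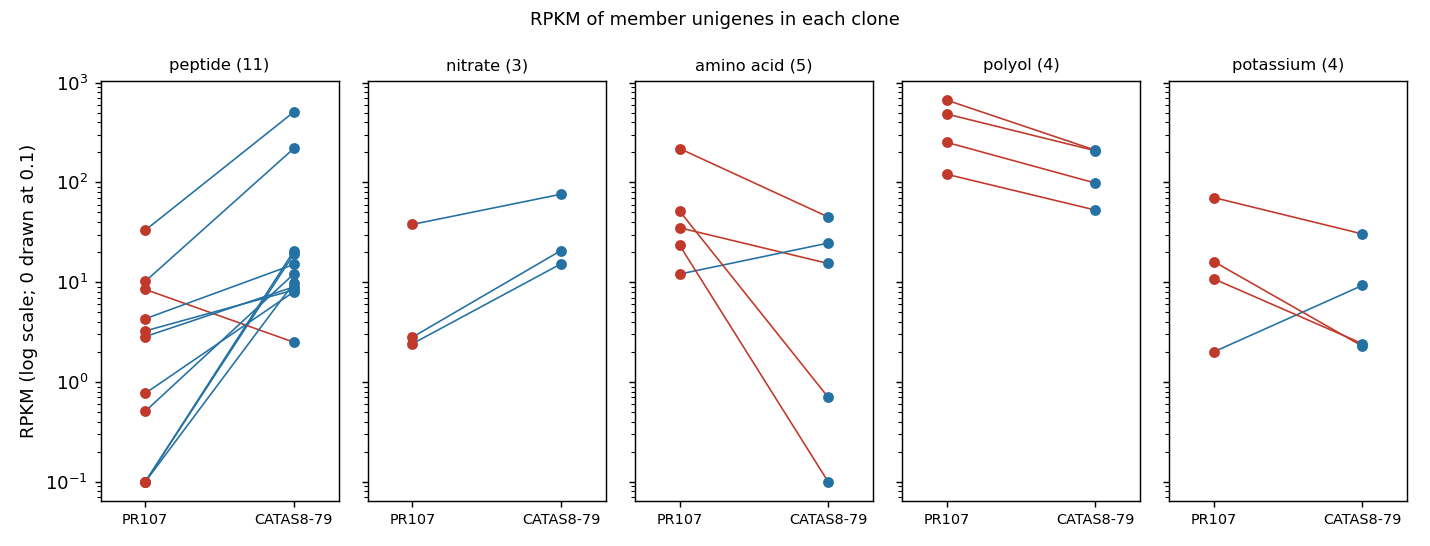
RPKM (log scale, 0 drawn at 0.1) of each member in PR107 (left) and CATAS8-79 (right) of its panel for 5 classes, with a line joining the values of a unigene. All 3 nitrate lines go up toward CATAS8-79, 10 of 11 peptide lines do so, and all 4 polyol lines go down.

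Carriers of amino acids and polyols were higher in PR107 in 8 of 9 members. The 5 amino acid carriers summed to 1133 reads in PR107 and 385 in CATAS8-79 (1.57, 1.40 to 1.74). The log2 ratio was 0.87 with members of at least 500 bp and 2.26 when only Swissprot hits were searched. Unigene44816, a hit to vacuolar amino acid transporter 1, which in yeast loads amino acids into the vacuole, had 166 reads in PR107 and 0 in CATAS8-79, at least 55.8-fold higher in PR107. Unigene51193, a hit to proton-coupled amino acid transporter 4, had 146 reads in PR107 and 2 in CATAS8-79 (6.20, 4.32 to 9.26). These were the members with the widest gaps toward PR107, and they are among the highest-numbered unigenes. The most-read amino acid carrier was Unigene22893, with 467 reads in PR107 and 97 in CATAS8-79 (2.28, 1.96 to 2.61). Unigene1251, a hit to vacuolar amino acid transporter 4, had 274 reads in PR107 and 121 in CATAS8-79 (1.19). The exception was Unigene7345, named for the mitochondrial basic amino acid carrier MBAC1, with 80 reads in PR107 and 165 in CATAS8-79 (-1.03).

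All 4 polyol members had a best Nr hit of 1 name, polyols transporter 1 of Hevea itself, a carrier of sugar alcohols. They were 205 to 324 bp long, so they may be pieces of 1 transcript, and their agreement in side is not that of 4 genes. Their RPKM ran from 121 to 668 in PR107 and from 52.9 to 210 in CATAS8-79. The reads summed to 2903 in PR107 and 1100 in CATAS8-79 (1.41, 1.31 to 1.51). The most-read of them, Unigene37925, had 1207 reads in PR107 and 383 in CATAS8-79 (1.67).

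**Figure D4:**
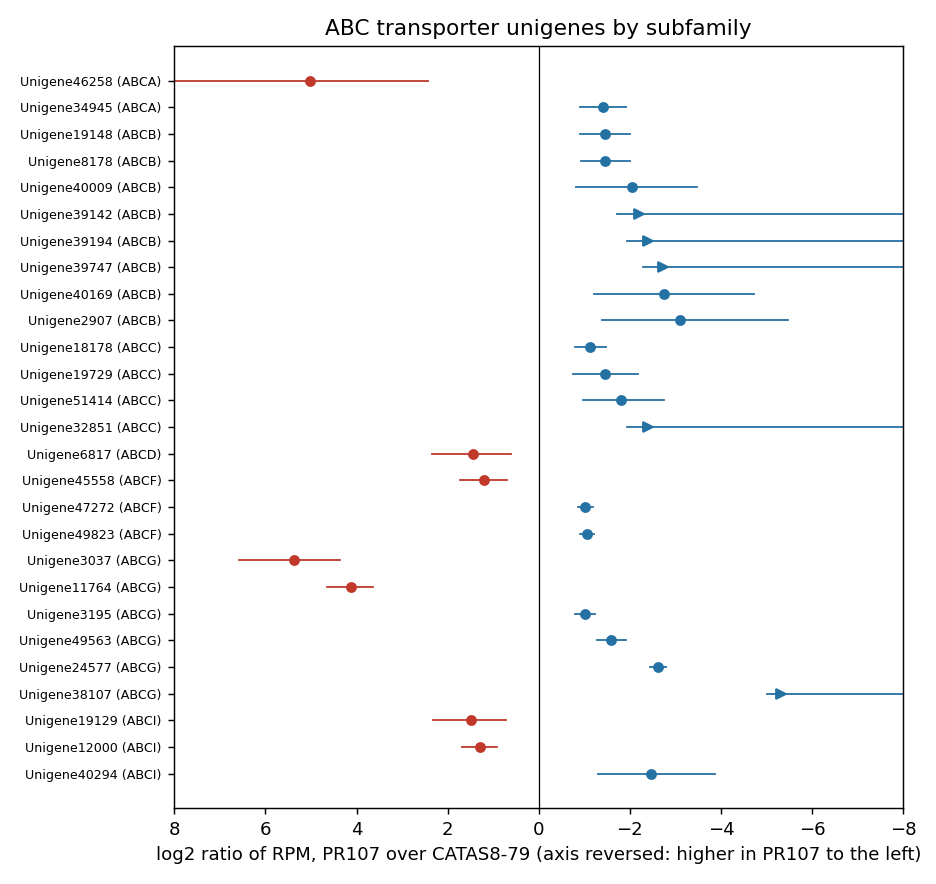
Log2 ratio of RPM, PR107 over CATAS8-79, of the 27 ABC members by subfamily, on a reversed axis that puts higher in PR107 to the left. Lines are 95% counting intervals cut at the axis ends, and triangles mark bounds for members with 0 reads in PR107. All 12 members of subfamilies B and C, some of which share a best hit, lie to the right, and the 2 ABCG5 hits lie far to the left.

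The ABC proteins gave 7 members higher in PR107 and 20 higher in CATAS8-79, with 3280 summed reads in PR107 and 5789 in CATAS8-79 (-0.81, -0.87 to -0.75). Without their most-read member, the ABCG11 hit Unigene24577, the log2 ratio was -0.40. Subfamilies B and C lay on 1 side each, while A, F, G and I lay on both. All 8 members of subfamily B, the multidrug resistance type whose plant members include auxin carriers, were higher in CATAS8-79, with 96 summed reads in PR107 and 358 in CATAS8-79 (-1.89, -2.23 to -1.56). The best read of them were Unigene8178, an ABCB20 hit with 42 reads in PR107 and 116 in CATAS8-79, and Unigene19148, an ABCB6 hit with 40 reads in PR107 and 110 in CATAS8-79. Of the 8 members, 4 had 3 or fewer reads in PR107. A hit to ABCB15 was shared by 3 of the 8, with 7 summed reads in PR107 and 69 in CATAS8-79, so these may not be separate genes. All 4 members of subfamily C, which in Arabidopsis loads conjugates and metal chelates into the vacuole, were also higher in CATAS8-79. They had 140 summed reads in PR107 and 358 in CATAS8-79 (-1.34, -1.64 to -1.06). Of these, 3 shared a hit to ABCC2 and may not be separate genes. The best read of the 3, Unigene18178, had 101 reads in PR107 and 223 in CATAS8-79 (-1.13).

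Subfamily G, the white-brown complex of exporters, split by its best hit. The 4 unigenes with a hit to ABCG11, an exporter of cuticle lipids in Arabidopsis, were all higher in CATAS8-79, with 676 summed reads in PR107 and 2820 in CATAS8-79 (-2.05, -2.17 to -1.93). Unigene24577 led them with 293 reads in PR107 and 1810 in CATAS8-79 (-2.62, -2.80 to -2.44). Unigene38107 had 0 reads in PR107 and 121 in CATAS8-79, at least 40.0-fold lower in PR107. The pair with a hit to ABCG5 lay on the other side. Unigene11764 had 638 reads in PR107 and 37 in CATAS8-79 (4.12, 3.64 to 4.64), and Unigene3037 had 327 reads in PR107 and 8 in CATAS8-79 (5.36, 4.37 to 6.59). Together the ABCG5 hits had 965 reads in PR107 and 45 in CATAS8-79, a 21.6-fold ratio.

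Among the other ABC members, the hit to ABCA1 lay on both sides. Unigene46258 had 32 reads in PR107 and 1 in CATAS8-79, a ratio of 32.2 with a log2 interval of 2.43 to 10.4. Unigene34945 had 48 reads in PR107 and 128 in CATAS8-79 (-1.40). The ABCF proteins lack membrane spans and have roles in translation rather than transport, and they were kept with the ABC proteins by name. The 2 short ABCF1 hits, Unigene49823 and Unigene47272, together had 903 reads in PR107 and 1872 in CATAS8-79 (-1.04), and the ABCF5 hit Unigene45558 had 110 reads in PR107 and 48 in CATAS8-79 (1.21). The ABCD2 hit Unigene6817 had 46 reads in PR107 and 17 in CATAS8-79 (1.45). The 3 members of subfamily I had 264 summed reads in PR107 and 142 in CATAS8-79 (0.91). They included Unigene12000, a hit to ABCI7, which takes part in iron-sulfur cluster assembly in the chloroplast, with 204 reads in PR107 and 84 in CATAS8-79 (1.29).

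Metal carriers were higher in PR107 in 10 of 15 members. Of the 10, 5 were among the highest-numbered unigenes, where the class had no member higher in CATAS8-79. Reads of the class summed to 1659 in PR107 and 1319 in CATAS8-79 (0.34, 0.24 to 0.45). This sum rested on its most-read member, since the log2 ratio was -0.092 without Unigene18858, and it was -0.60 when only Swissprot hits were searched. That unigene, a ZIP-family member with a hit to IAA-alanine resistance protein 1, had 621 reads in PR107 and 204 in CATAS8-79 (1.62, 1.39 to 1.85). The ZIP carriers move zinc and iron into the cytoplasm, and 4 of 5 were higher in PR107. The exception was Unigene12049, a hit to zinc transporter 4, with 166 reads in PR107 and 452 in CATAS8-79 (-1.43). Of the 4, Unigene44919 and Unigene44337 were among the highest-numbered. The iron exporter hit Unigene24554 had 10 reads in PR107 and 51 in CATAS8-79 (-2.34), and the Nramp1 hit Unigene6022 had 47 reads in PR107 and 110 in CATAS8-79 (-1.22). Magnesium carriers numbered 7, with 631 summed reads in PR107 and 444 in CATAS8-79 (0.52). They held a pair of unigenes on opposite sides whose best Nr hits share 1 name, although these may be different proteins. Unigene31065 had 47 reads in PR107 and 15 in CATAS8-79 (1.66), and Unigene22062 had 71 reads in PR107 and 153 in CATAS8-79 (-1.10).

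Of the 4 potassium carriers of the KUP/HAK/KT family, proton-coupled or channel-like uptake proteins, 3 were higher in PR107. Their sums were 249 reads in PR107 and 151 in CATAS8-79 (0.73, 0.44 to 1.03). Unigene2331, a hit to potassium transporter 2, had 154 reads in PR107 and 67 in CATAS8-79 (1.21). Unigene34476, named for tiny root hair 1, had 15 reads in PR107 and 70 in CATAS8-79 (-2.21), and it was the one potassium member of at least 500 bp, so the sum turned to -2.21 when shorter unigenes were left out.

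Sulfate carriers and carriers of phosphosulfate summed to 526 reads in PR107 and 951 in CATAS8-79 (-0.84), with 2 members higher in PR107 and 3 higher in CATAS8-79. Unigene24330, a hit to sulfate transporter 4.1, had 361 reads in PR107 and 843 in CATAS8-79 (-1.21). Unigene44877, a hit to sulfate transporter 3.1, had 108 reads in PR107 and 11 in CATAS8-79 (3.31). The sulfate hits thus lay on both sides, although both members of the class higher in PR107 were among the highest-numbered unigenes. Unigene46273, with a Swissprot hit to a phosphosulfate carrier, was classed by its Nr hit with the nucleotide sugars and is not counted here. It had 74 reads in PR107 and 34 in CATAS8-79. The 6 carriers of nucleobases and nucleotides had 1 member higher in PR107 and 5 higher in CATAS8-79, and 5 of the 6 were purine permeases, which take up adenine and cytokinins in Arabidopsis. The plastid ATP/ADP carrier Unigene7458 had 73 reads in PR107 and 170 in CATAS8-79 (-1.21).

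Carriers of nucleotide sugars and plastid phosphate had 618 summed reads in PR107 and 424 in CATAS8-79 (0.55, 0.37 to 0.74). The glucose-6-phosphate/phosphate translocator hit Unigene18569, which brings sugar phosphate into plastids, had 410 reads in PR107 and 189 in CATAS8-79 (1.13). The hit to the Golgi GDP-mannose carrier lay on both sides. Unigene43800 had 57 reads in PR107 and 15 in CATAS8-79 (1.94), and Unigene23648 had 77 reads in PR107 and 186 in CATAS8-79 (-1.26). Members of the phosphate and SPX class, in which SPX is a phosphate-sensing domain, numbered 5, with 2 higher in PR107 and 3 higher in CATAS8-79. Unigene34495, Unigene51717 and Unigene2396 were members only through a Swissprot hit to a vacuolar transporter chaperone, so they may not be carriers. A pair of IDS4-like unigenes there shared a hit on opposite sides. Unigene51717 had 108 reads in PR107 and 41 in CATAS8-79 (1.41), and Unigene34495 had 73 reads in PR107 and 190 in CATAS8-79 (-1.37).

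Another 18 members were carriers of other substrates or were not named further, with 11 higher in PR107 and 7 higher in CATAS8-79. Of the 11, 5 were among the highest-numbered unigenes, where the class had no member higher in CATAS8-79. The most read of the 18 was Unigene12168, a hit to the succinate/fumarate carrier of mitochondria, with 477 reads in PR107 and 1378 in CATAS8-79 (-1.52, -1.67 to -1.37). Next came Unigene17696, named a tetracycline transporter of the major facilitator type, with 1317 reads in PR107 and 461 in CATAS8-79 (1.53, 1.37 to 1.68). Together these 2 with Unigene17866, Unigene24577 and Unigene37925 were the 5 members with the most RPM, and they held 20.6% of the members' reads in PR107 and 33.3% in CATAS8-79. The 4 unigenes named integral membrane transporter family protein were all higher in PR107, with 622 summed reads in PR107 and 180 in CATAS8-79 (1.80). Among them Unigene43395 had 126 reads in PR107 and 3 in CATAS8-79, a ratio of 42.3 with a log2 interval of 3.82 to 7.70. Unigene43395 and Unigene46145 of this family were among the highest-numbered.

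The 18 members outside the ABC proteins that were classed as not carrying solutes had 4 higher in PR107 and 14 higher in CATAS8-79. They had 1974 summed reads in PR107 and 3868 in CATAS8-79 (-0.96, -1.04 to -0.88). The 3 hits to importin-9, which brings proteins into the nucleus, had 58 reads in PR107 and 255 in CATAS8-79 (-2.13). The pair of hits to EIN2, the Nramp-like membrane protein that passes on the ethylene signal, had 309 reads in PR107 and 644 in CATAS8-79 (-1.05). Unigene23221, a hit to VPS45, which serves vesicle fusion, had 417 reads in PR107 and 841 in CATAS8-79 (-1.001). The most read was Unigene48357, named for the sphingolipid transfer protein ACD11, with 404 reads in PR107 and 989 in CATAS8-79 (-1.28).

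Members were not all separate genes. Taking the Swissprot hit where there was one and the Nr hit otherwise, the 125 members had 95 distinct best hits, and 21 of these were shared by 51 members. Members of a shared hit lay on the same side in 16 of the 21 and on both sides in 5, which were those to the magnesium transporter, ABCA1, the GDP-mannose carrier, OPT7 and the IDS4-like protein. In all of these but the magnesium pair, the unigene higher in PR107 was among the highest-numbered and those higher in CATAS8-79 were not. The part of the assembly in these splits was not tested. Reads of close copies may have been split between unigenes by the placement of reads. Scaling the libraries by the trimmed mean of M-values or by the median of ratios moved every log2 ratio alike, by -0.046 and -0.029, and since members had been listed at 2-fold or more a change of side was not possible.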

How the data were processed

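RNA of pooled latex (1 library per clone, 5 trees each) was sequenced on an Illumina instrument, and the authors assembled both clones' reads with SOAPdenovo into 1 set of unigenes. The authors deposited raw read counts per unigene and RPKM. The deposited RPKM equalled reads scaled by unigene length and library total within 5e-05, although the methods call the unit TPM. The submitters' notes list the mouse build mm9, but no genome entered the assembly. Best Nr and Swissprot hits were given only in the table of unigenes that the authors called. The authors' log2 ratio, p-value and FDR columns hold their own comparison and were not used, apart from membership of that table. There were 0 further per-sample columns. Columns were assigned to clones by the clone digits in their headers, and every direction given rests on this. The pair of hits to EIN2, which the study reports as higher in CATAS8-79, lay on that side under this assignment.

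Members were found by words in the best-hit text. Reads per 1000000 reads, log2 ratios (PR107 over CATAS8-79) and exact Clopper-Pearson intervals at 95% were computed with Python 3.11.15, pandas 2.3.3 and scipy 1.17.1 from the deposited counts, with a floor of 3 reads per library. With 1 library per clone, edgeR's quasi-likelihood test could not be fitted. The trimmed mean of M-values (edgeR 4.0.16) and the median of ratios (DESeq2 1.42.0) served as alternative scalings, in R 4.3.3. Interval code was tested on simulated data. None of the unigene labels matched the 50196 RefSeq genes of the organism. The labels belong to this assembly alone, so no match was possible, and no RefSeq gene is given for a member.

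Other alternatives were the search of only 1 of the hit texts, minimums of 50 reads and 500 bp, and 1 unigene per best Nr hit. Nr hits were told apart by name alone, so different proteins of 1 name counted as 1 hit. Further alternatives were leaving out unigenes numbered 40430 or higher (the highest-numbered unigenes of the report), RPKM sums and leaving out the most-read member. Named were the 5 members with the most RPM, the 5 with the largest log2 ratio in each direction, the most-read member on each side of each main class, hits lying on both sides and members nearest the threshold. Other unigenes named were chosen after their values were seen. The members, lists and classes were chosen with earlier results of these data known, and the class words were edited after values were seen. No listed unigene of the highest-numbered range had 0 reads in PR107, so its start may not be independent of the reads.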

Additional observations from a re-analysis of the deposited data

How the results depend on the processing

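Of 86 values under 10 alternative settings for 9 results, 43 stayed within the counting interval or within 1.5 times the count, 40 moved and 3 reversed. Some of the 43 could not change, so their number is no measure of stability. These were the side counts under the alternative scalings and the sums whose unigenes a setting left the same. The summed log2 ratio of all members was -0.58 under the trimmed mean of M-values, -0.56 under the median of ratios, -0.21 with only Nr text, -0.88 with only Swissprot text, -0.85 at 500 bp or more, -0.75 with 1 unigene per Nr hit, -0.60 without the highest-numbered unigenes, -0.35 with RPKM summed and -0.28 without the most-read member. Members higher in PR107 numbered 30 with only Swissprot text, 30 at 500 bp or more, 34 with 1 unigene per Nr hit and 29 without the highest-numbered unigenes. Members higher in CATAS8-79 numbered 44 at 500 bp or more and 46 with 1 unigene per Nr hit. Fewer unigenes enter under each of these settings by construction.

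With only Nr text, the sum was -1.35 for peptide carriers and 1.21 for potassium carriers. With only Swissprot text, it was -0.88 for ABC proteins, 2.26 for amino acid carriers and -2.83 for nitrate carriers, and it reversed to -0.60 for metal carriers. At 500 bp or more, it was -0.72 for ABC proteins, 0.87 for amino acid carriers and -2.88 for nitrate carriers, and it reversed to -2.21 for potassium carriers. Taking 1 unigene per Nr name left out the ABCG5 hits, which share an Nr name with the more-read ABCG11 hits. The sum was then -1.37 for ABC proteins, 1.38 for amino acid carriers and 0.71 for metal carriers. Without the highest-numbered unigenes, it was -0.71 for ABC proteins, 1.11 for amino acid carriers, 0.16 for metal carriers and -3.91 for peptide carriers. With RPKM summed, it was -0.99 for ABC proteins, 1.99 for amino acid carriers, -1.38 for nitrate carriers, -3.71 for peptide carriers and 1.16 for potassium carriers. Without the most-read member, it was -0.40 for ABC proteins, 1.22 for amino acid carriers, -2.83 for nitrate carriers, -2.79 for peptide carriers and 0.19 for potassium carriers, and it reversed to -0.092 for metal carriers. Causes beyond the unigenes left out were not tested.

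No paired analysis was possible because each clone had 1 library and no test was made. With 1 pooled library per clone, differences between trees, extractions or library preparations cannot be told apart from those between clones. Members with few reads were limited by depth, and 16 had 3 or fewer reads in PR107 and 6 in CATAS8-79.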
